A study of Homo sapiens with 6 samples.

Results

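The ADAM family genes were examined in RNA-seq counts of OVCAR5, an established epithelial ovarian cancer cell line. The members were the rows of the count table whose Ensembl identifiers map to 10 named ADAM symbols. All 10 were found among 60649 gene rows, and all 10 were among the 22038 genes that passed the filter on low counts. Of these, 8 encode catalytically active sheddases (ADAM8, ADAM9, ADAM10, ADAM12, ADAM15, ADAM17, ADAM19 and ADAM28) and 2 encode non-proteolytic members (ADAM22 and ADAM23). There were 3 libraries of cells transduced with lentivirus carrying METTL3, the catalytic subunit of the m6A RNA methyltransferase, and 3 of cells given empty-vector lentivirus. Both arms were selected with puromycin and expanded as stable lines, and the labels name no drug treatment beyond that selection. The labels call the control cells parental in one place and empty-vector cells in another. They do not say whether replicates came from separate transductions or cultures, so p-values measure only the spread between these libraries, which may be technical. An effect of METTL3 and a difference between 2 stable lines cannot be told apart.

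ADAM proteins are membrane-anchored proteins with a metalloprotease domain and a disintegrin domain. Active members release the outer parts of growth factor precursors, cytokines, adhesion molecules and Notch receptors from the cell surface, a process called ectodomain shedding. ADAM22, ADAM23 and their relative ADAM11 have lost the residues that hold the catalytic zinc, and they act in adhesion and as receptors for secreted LGI proteins. ADAM23 also binds integrin αvβ3.

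The zinc-binding stretch is what divides the 10 genes into these classes. Its coding sequence is shown for ADAM10, ADAM15 and ADAM17, which are 3 of the 4 members with the highest level, and for both non-proteolytic members. Capitals mark the codons for those of the 5 fixed residues of the zinc motif that the transcript encodes.
ADAM10: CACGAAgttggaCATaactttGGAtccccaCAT
ADAM15: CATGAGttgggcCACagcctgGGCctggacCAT
ADAM17: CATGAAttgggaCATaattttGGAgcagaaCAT
ADAM22: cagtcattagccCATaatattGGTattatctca
ADAM23: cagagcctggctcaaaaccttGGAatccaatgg

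The sequences are the coding strand of the GENCODE release 44 transcripts on hg38. They lie in coding exons 9 and 10 of ADAM10 (chr15:58627881-58633225, minus strand, with the intron between them), coding exon 11 of ADAM15 (chr1:155056995-155057027, plus strand), coding exon 11 of ADAM17 (chr2:9510078-9510110, minus strand), coding exon 13 of ADAM22 (chr7:88134365-88134397, plus strand) and coding exon 13 of ADAM23 (chr2:206562239-206562271, plus strand). All 8 active members encode the full motif once, with all 5 residues. ADAM22 keeps 2 of the 5 residues and ADAM23 keeps 1, as read from an alignment of their proteins with ADAM19. ADAM22 and ADAM23 are the most alike pair of the family, with 51.8% identical residues, followed by ADAM12 and ADAM19 with 48.4%.

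Total counts were 96633925 to 125463386 per library. The overexpressed gene, METTL3, lay between 152 and 175 CPM (counts scaled to a common library total) in the METTL3 group and between 68.6 and 80.6 CPM in the vector group, so the labels held for this gene. Replicate 1 stood apart in both groups over the 22028 tested genes other than the members. The median absolute log2 CPM difference between replicates 2 and 3 was 0.115 with METTL3 and 0.121 with the vector, whereas replicate 1 differed from them by 0.272 and 0.285 with METTL3 and by 0.401 and 0.363 with the vector. Member differences are therefore given over all 6 libraries and again over replicates 2 and 3 of each group. The second set of libraries was chosen with the values of ADAM23 known, so its p-values are conditional on that choice and describe these 4 libraries. The 7 epithelial markers (EPCAM, KRT8, KRT18, KRT19, CDH1, CLDN4 and MUC1) were expressed, with a summed level of 7260 to 8321 CPM with METTL3 and 5890 to 9098 CPM with the vector. Of 10 markers of immune, endothelial, fibroblast and neuronal cells, 5 (PTPRC, CD3E, COL1A2, DCN and SNAP25) were under 0.1 CPM in every library. The sum of the 10 was 33.7 to 49.7 CPM with METTL3 and 27.0 to 31.0 CPM with the vector, nearly all of it from CD14, PECAM1 and COL1A1.

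Levels of the members were compared per length, as RPKM over the union of each gene's exons. The mean RPKM over 6 libraries was 81.2 for ADAM9, 36.3 for ADAM10, 29.1 for ADAM15 and 7.47 for ADAM17, and the ranges of these 4 over the libraries did not overlap with one another. ADAM8 (2.86 RPKM), ADAM23 (1.88 RPKM), ADAM22 (1.54 RPKM) and ADAM28 (1.05 RPKM) followed, and in this order each overlapped in range with the next. ADAM12 (0.0883 RPKM) and ADAM19 (0.0207 RPKM) were lowest and overlapped with each other. The 2 non-proteolytic members thus sat in the middle of the family, below ADAM9, ADAM10, ADAM15 and ADAM17 and above both ADAM12 and ADAM19, which are meltrins alpha and beta.

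**Figure D1:**
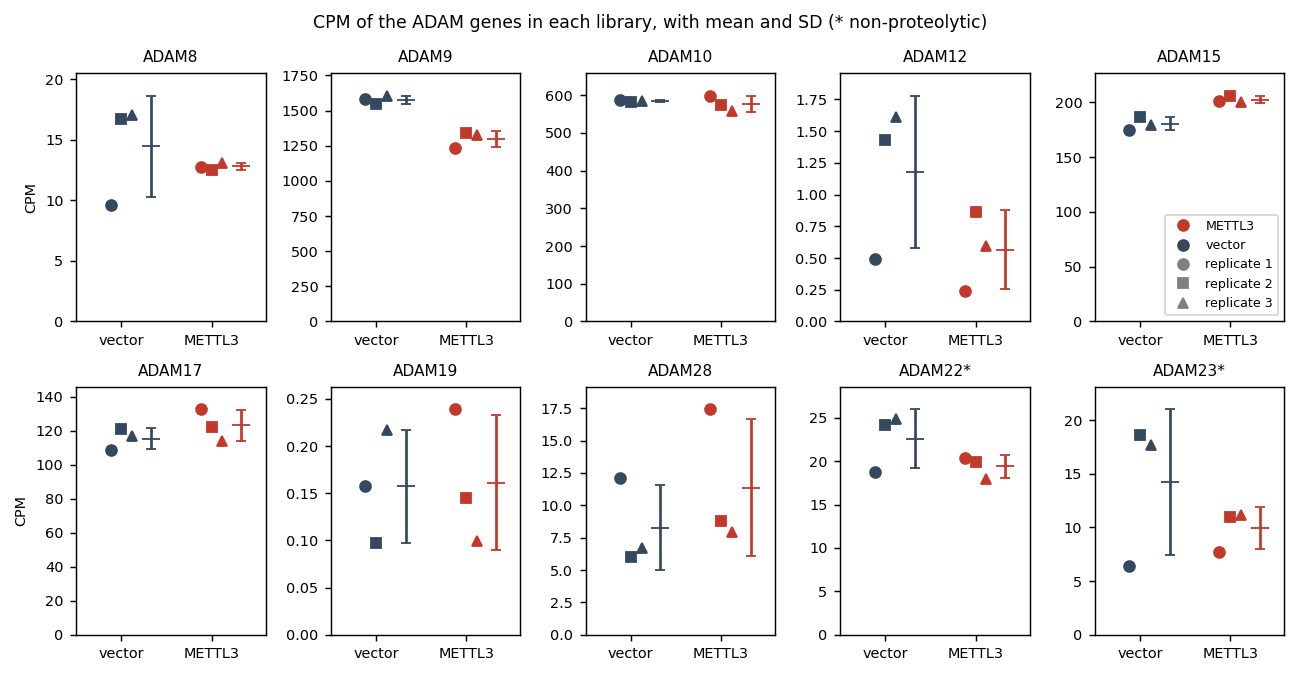
CPM of the 10 ADAM genes in each library (vertical axes, linear and starting at 0), with vector and METTL3 libraries side by side, a marker shape for each replicate number, and the mean with the SD of 3 libraries beside them; asterisks mark the non-proteolytic members. ADAM9 was lower and ADAM15 higher in every METTL3 library, while vector replicate 1 fell below both other vector libraries for ADAM8, ADAM12, ADAM15, ADAM17, ADAM22 and ADAM23.

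The first question was whether the non-proteolytic members differed between METTL3-overexpressing and vector cells. ADAM23 (chr2:206443532-206621127, plus strand), the gene the study follows, was at 7.68, 11.02 and 11.1 CPM with METTL3 and at 6.41, 18.6 and 17.7 CPM with the vector, in replicates 1, 2 and 3. The vector group held both the lowest and the highest of the 6 values, so the groups overlapped. Over all 6 libraries ADAM23 had a log2 fold change of -0.52 (SE 0.364, the standard error), with an adjusted p of 0.687 by the quasi-likelihood test of edgeR, and the exact permutation test on its CPM gave p = 0.4 (two-sided, smallest possible 0.1). Over replicates 2 and 3 it was lower with METTL3 by a log2 fold change of -0.71 (SE 0.0764, adjusted p = 1.82e-05). Between libraries of the same number the log2 difference was 0.26 in replicate 1, -0.75 in replicate 2 and -0.66 in replicate 3. The level of ADAM23 thus passed the test in replicates 2 and 3 and did not pass it where replicate 1 was included. In bulk RNA, fewer cells with a transcript and less of it per cell cannot be told apart.

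In the vector group, the distance between replicates was larger for ADAM23 than its difference between the groups. There, replicate 1 was below the mean of replicates 2 and 3 by a log2 difference of -1.49, and in the METTL3 group by -0.53. ADAM12 shared this, at -1.53 and -1.43, and ADAM28 went the other way, at 0.92 and 1.06. Without vector replicate 1 alone, the log2 fold change of ADAM23 was -0.87 (adjusted p = 0.0607 from edgeR), and without vector replicate 2 it was -0.26, so both ends of its range over single omissions came from the vector group.

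ADAM22 (chr7:87934143-88202889, plus strand), the receptor of LGI1 at synapses, was at 20.4, 19.9 and 17.9 CPM with METTL3 and at 18.7, 24.2 and 24.9 CPM with the vector, in replicates 1, 2 and 3. Vector replicate 1 was again the library that made the groups overlap. The log2 fold change was -0.22 over all libraries (SE 0.145, adjusted p = 0.671) and -0.38 over replicates 2 and 3 (SE 0.0733, adjusted p = 0.00277), both from edgeR. It was -0.34 without vector replicate 1, -0.14 without vector replicate 2 and -0.12 without vector replicate 3. The ratio of ADAM23 to ADAM22 in RPKM was 0.801, 1.18 and 1.32 with METTL3 and 0.729, 1.64 and 1.51 with the vector. Per base of the longest transcript, a length chosen after seeing the data, it was 0.565, 0.829 and 0.934 with METTL3 and 0.514, 1.16 and 1.07 with the vector. On both lengths ADAM23 was the lower of the pair in the replicate 1 libraries and the higher in vector replicates 2 and 3, and the order in METTL3 replicates 2 and 3 turned with the length.

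Among the active members, ADAM10 and ADAM17 are the main sheddases of most cells. ADAM10, which cleaves Notch receptors, cadherins and the amyloid precursor protein, was at 598, 575 and 557 CPM with METTL3 and at 588, 582 and 584 CPM with the vector. Its log2 fold change was -0.02 over all libraries (SE 0.109, adjusted p = 0.969) and -0.05 over replicates 2 and 3 (SE 0.05, adjusted p = 0.629). ADAM17, the converting enzyme of TNF and of several EGF receptor ligands, was at 133, 122 and 114 CPM with METTL3 and at 108, 121 and 117 CPM with the vector. Its log2 fold change was 0.09 (SE 0.111, adjusted p = 0.815) and, over replicates 2 and 3, -0.01 (SE 0.0553, adjusted p = 0.955). Neither passed edgeR's test in either set of libraries. Exons of other genes on the opposite strand cover 11.7% of the exonic bases of ADAM17, and the strand setting of the counting is not given in the sources used here.

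ADAM9 and ADAM15 were the members whose groups stood apart. ADAM9, a broadly expressed sheddase also called meltrin gamma, was at 1234.5, 1337 and 1326 CPM with METTL3 and at 1582, 1547 and 1603 CPM with the vector, lower in all 3 METTL3 libraries. The log2 fold change was -0.28 over all libraries (SE 0.116, adjusted p = 0.59) and -0.24 over replicates 2 and 3 (SE 0.0496, adjusted p = 0.00372). ADAM15, whose disintegrin domain carries an integrin-binding RGD motif, was at 201, 206 and 200.4 CPM with METTL3 and at 175, 187 and 179 CPM with the vector, higher in all 3 METTL3 libraries. The log2 fold change was 0.17 over all libraries (SE 0.102, adjusted p = 0.656) and 0.15 over replicates 2 and 3 (SE 0.0516, adjusted p = 0.0711). For each of these genes the exact permutation test gave p = 0.1, the smallest that 3 libraries against 3 allow. As the groups did not overlap, any pairing of libraries gives the same sign, so the sign within pairs adds nothing. Within the 3 same-numbered pairs the log2 difference was -0.36 to -0.21 for ADAM9 and 0.14 to 0.20 for ADAM15.

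The remaining active members were low. ADAM8, known from leukocytes, was at 12.8, 12.5 and 13.1 CPM with METTL3 and at 9.62, 16.7 and 17.0 CPM with the vector, with a log2 fold change of -0.18 over all libraries (adjusted p = 0.821) and -0.40 over replicates 2 and 3 (SE 0.0757, adjusted p = 0.00235). ADAM28, known from lymphocytes, was at 17.4, 8.76 and 7.91 CPM with METTL3 and at 12.1, 6.03 and 6.73 CPM with the vector, with a log2 fold change of 0.46 over all libraries (adjusted p = 0.718) and 0.39 over replicates 2 and 3 (SE 0.103, adjusted p = 0.0206). Within same-numbered pairs ADAM28 was higher with METTL3 by 0.53, 0.53 and 0.23 on the log2 scale, while the pair of replicate 1 set ADAM8 at 0.40 and the other pairs at -0.41 and -0.38. Single libraries decided the size of both. The log2 fold change of ADAM28 was 0.04 without METTL3 replicate 1 and 0.83 without vector replicate 1, and that of ADAM8 was -0.40 without vector replicate 1, -0.04 without vector replicate 2 and -0.02 without vector replicate 3.

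ADAM12 and ADAM19 rested on few counts. ADAM12 had 27, 107 and 60 counts in METTL3 replicates 1, 2 and 3 and 47, 162 and 178 counts in those of the vector, and its log2 fold change was -1.06 over all libraries (SE 0.534, adjusted p = 0.63) and -1.05 over replicates 2 and 3 (SE 0.234, adjusted p = 0.00676). ADAM12 was lower with METTL3 in all 3 same-numbered pairs, and its log2 fold change was between -1.50 (without METTL3 replicate 2) and -0.68 (without METTL3 replicate 1) with single libraries left out. ADAM19 had 27, 18 and 10 counts with METTL3 and 15, 11 and 24 with the vector, and a difference was not detectable at this depth (log2 fold change 0.04, SE 0.489, adjusted p = 0.99).

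Over all 6 libraries, 0 of the 10 members and 0% of the 22038 genes tested passed an adjusted p of 0.05. The overexpressed gene, METTL3, did not pass either (log2 fold change 1.16, SE 0.117, adjusted p = 0.072 from edgeR), though its groups did not overlap. It passed over replicates 2 and 3 (log2 fold change 1.28, adjusted p = 1.59e-08 from edgeR). A member that did not pass over all 6 libraries is therefore not shown to be unchanged. At an unadjusted p under 0.05, 1 member, ADAM9, was counted, against 8.3% of all genes. The groups did not overlap in CPM for 2 of the 10 members, against 17.4% of all genes. Over replicates 2 and 3 of each group, 6 of the 10 members passed, against 15.2% of the genes tested and 21.2% of those with a mean of at least 1 CPM. Of the 6, ADAM8, ADAM9, ADAM12, ADAM22 and ADAM23 were lower with METTL3, and 8.59% of all genes tested passed as lower. ADAM28 was higher, and 6.66% of all genes tested passed as higher. The active members were 4 of these 6, out of 8, and the non-proteolytic members the other 2, out of 2. Where trends with GC content and length were removed within each of these 4 libraries, 7 members passed, ADAM15 being added as higher (log2 fold change 0.25, adjusted p = 0.000617). That correction turned the split of all called genes from 1469 higher and 1893 lower to 2688 higher and 2016 lower.

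The median log2 fold change over replicates 2 and 3 was -0.54 for the 2 non-proteolytic members and -0.14 for the 8 active ones, beside -0.0033 for all genes tested. Over all 6 libraries the medians were -0.37, 0.01 and -0.02 in the same order. A count of 2 genes in a class allows no statement that the classes differ.

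**Figure D2:**
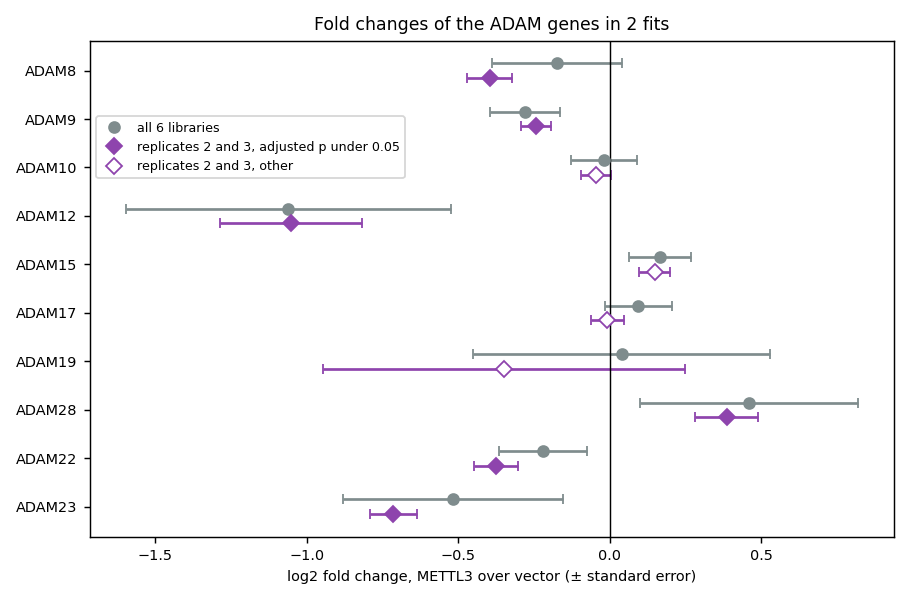
Log2 fold changes of METTL3 over vector (horizontal axis, bars are the SE) for the 10 ADAM genes, over all 6 libraries (grey circles) and over replicates 2 and 3 of each group (purple diamonds, filled where the adjusted p was under 0.05). ADAM23 lay at -0.52 and -0.71, and 6 diamonds are filled, 5 of them left of 0.

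The classes were then set against each other within each library. The summed level of the 8 active members was 151, 154 and 151 RPKM in METTL3 replicates 1, 2 and 3. It was 163, 164 and 166 RPKM in vector replicates 1, 2 and 3, so every METTL3 library was below every vector library. ADAM9, the largest part of this sum, had a mean of 73.4 RPKM with METTL3 and 89.1 RPKM with the vector. The means of ADAM10 were 36.1 and 36.6 RPKM, of ADAM15 30.7 and 27.4, and of ADAM17 7.72 and 7.23, in the same order. The lower sum is therefore no statement about the class without ADAM9. ADAM22 plus ADAM23 summed to 2.69, 3.17 and 3.04 RPKM with METTL3 and to 2.37, 4.67 and 4.57 RPKM with the vector, and these overlapped. The non-proteolytic share of the family was 1.75, 2.02 and 1.98% with METTL3 and 1.43, 2.77 and 2.68% with the vector. The vector group thus spanned the METTL3 group, with replicate 1 below it and replicates 2 and 3 above it. The log2 ratio of non-proteolytic to active levels was lower with METTL3 by a difference of -0.21, smaller than the pooled SD of 0.395 between replicates. Over replicates 2 and 3 of each group the difference was -0.46. Without vector replicate 1 it was -0.52, and without vector replicate 2 it was -0.04.

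**Figure D3:**
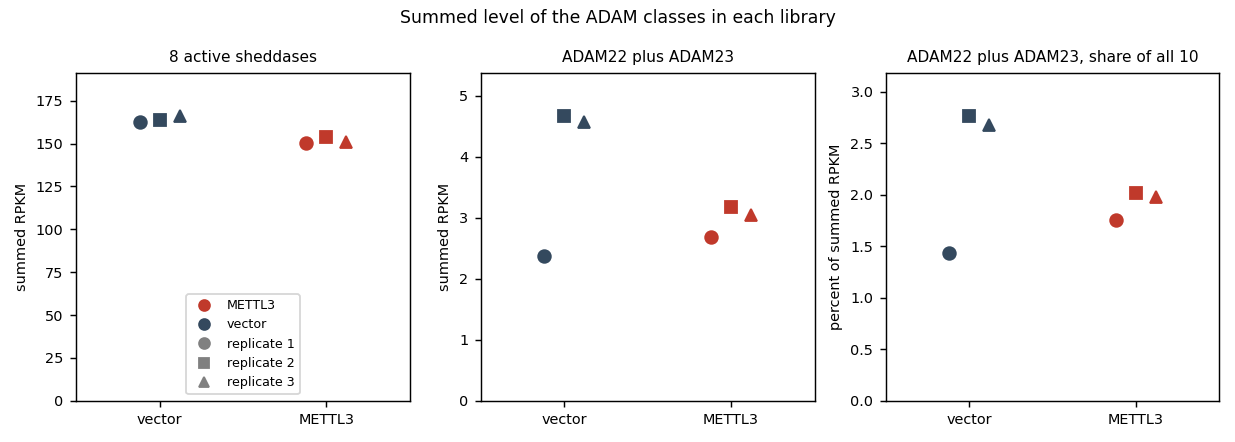
Summed RPKM of the 8 active sheddases, of ADAM22 plus ADAM23, and the latter as a percent of all 10 (vertical axes, starting at 0), for each library by group and replicate number. The active sum was 151 to 154 RPKM with METTL3 and 163 to 166 RPKM with the vector, while the non-proteolytic share of vector replicate 1, at 1.43%, lay below every other library.

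Within the active class, ADAM9, ADAM10 and ADAM15 held 91.4 to 93.8% of the summed RPKM in every library. These shares depend on the length used, here the exon union. It is 17704 bases for ADAM9, 15979 for ADAM10 and 6584 for ADAM15, and the longest transcripts are 7079, 11158 and 4508 bases. Shares per base of the longest transcript are not given. ADAM9 held 46.3, 49.0 and 49.6% with METTL3 and 54.9, 53.3 and 54.5% with the vector. ADAM15 held 20.3, 20.3 and 20.2% with METTL3 and 16.3, 17.3 and 16.4% with the vector. The shares of ADAM9 and ADAM15 thus did not overlap between the groups, in opposite directions, and neither did their CPM. Groups did not overlap in CPM for 17.4% of all genes tested. Shares of one sum depend on each other, so a lower ADAM9 raises the shares of the others. ADAM10 held 23.1 to 24.9% with METTL3 and 22.0 to 22.6% with the vector. Its share did not overlap either, although its CPM did, with a log2 fold change of -0.02 over all libraries.

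**Figure D4:**
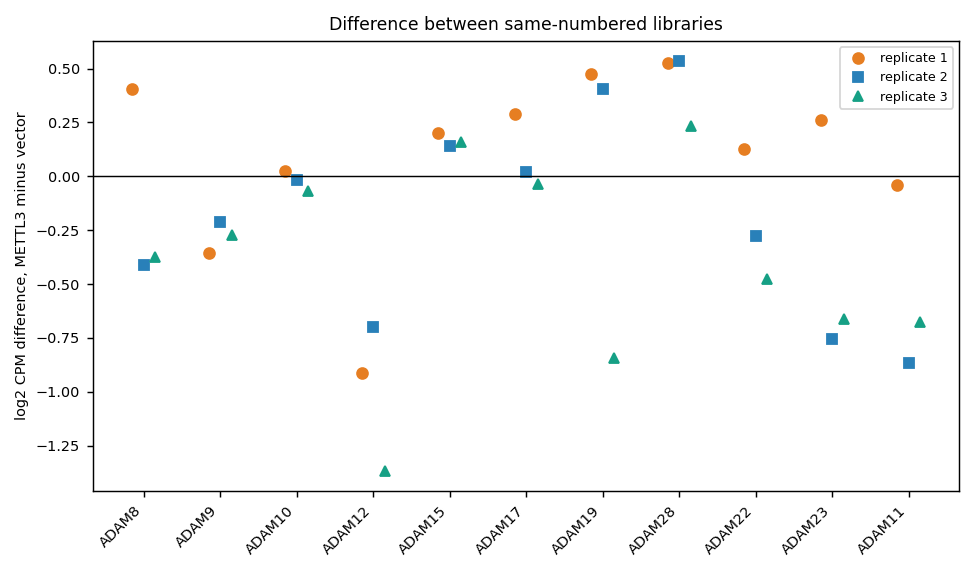
Log2 CPM difference between the METTL3 and the vector library of the same replicate number (vertical axis) for the 10 ADAM genes and ADAM11, with a colour and shape for each number. Replicate 1 lay above 0 for ADAM8, ADAM22 and ADAM23 where replicates 2 and 3 lay below 0, whereas ADAM9, ADAM12, ADAM15 and ADAM28 had 1 sign in all 3 pairs.

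Of 11 further ADAM genes, 8 were under 0.12 CPM in every library and 3 were tested. ADAM11, the non-proteolytic relative of ADAM22 and ADAM23, was at 10.3, 14.4 and 15.7 CPM with METTL3 and at 10.6, 26.3 and 25.1 CPM with the vector. Its log2 fold change was -0.62 over all libraries (adjusted p = 0.635) and -0.78 over replicates 2 and 3 (SE 0.0722, adjusted p = 5.75e-06), the direction of ADAM22 and ADAM23. Over replicates 2 and 3, 8.59% of all genes tested passed as lower. ADAM21 was at 0.656, 0.895 and 0.664 CPM with METTL3 and at 1.30, 1.27 and 1.30 CPM with the vector, without overlap (log2 fold change -0.80, adjusted p = 0.439, and -0.72, adjusted p = 0.0491, over replicates 2 and 3). Such non-overlap in CPM was found for 17.4% of all genes tested. ADAM32, which is also non-proteolytic, did not pass either fit (-0.26 and, over replicates 2 and 3, -0.35 on the log2 scale, adjusted p = 0.0915).

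The pattern of ADAM23 over the 6 libraries was shared by many genes. Among 14662 named genes with a mean of at least 1 CPM, the Pearson correlation of log2 CPM with ADAM23 was among the highest for GPAA1 (0.999), SZRD1 (0.999), ZNRF1 (0.998) and SNAI1 (0.997), and 6.63% of the genes reached 0.9. It was lowest for TGFA, at -0.9996, and then for ADH1C (-0.998), RAB25 (-0.998), ENSG00000286707 (-0.998) and ICA1 (-0.997). These 6 points come from 2 groups and share the shift of replicate 1, and the values are a description of these libraries. Within the family the correlation with ADAM23 was 0.98 for ADAM11, 0.94 for ADAM8, 0.78 for ADAM22 and -0.88 for ADAM28. With the 2 libraries farthest from the median of ADAM23 left out (vector replicates 1 and 2, a check chosen after seeing the data), it was 0.996, 0.87, 0.65 and -0.89 in the same order over 4 libraries. METTL3 itself had a correlation of -0.41 with ADAM23. Of the 7 epithelial markers, the correlation with ADAM23 was -0.98 for KRT19, -0.97 for KRT8, -0.96 for KRT18, -0.93 for EPCAM, -0.61 for CLDN4, -0.46 for CDH1 and 0.25 for MUC1. All 7 epithelial markers passed as higher with METTL3 over replicates 2 and 3. Their log2 fold changes there ran from 0.17 for CLDN4 to 0.91 for CDH1, and 6.66% of all genes tested passed as higher. Among genes with a mean of at least 1 CPM, 21.2% passed there in either direction. Over all 6 libraries 0 of the 7 passed. In the pair of replicate 1, EPCAM (-0.14), KRT8 (-0.23), KRT18 (-0.22) and KRT19 (-0.09) were lower with METTL3 on the log2 scale. CDH1 (1.13), CLDN4 (0.17) and MUC1 (2.46) were higher in that pair. The part of these 7 markers in the level of ADAM23 was not tested.

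**Figure D5:**
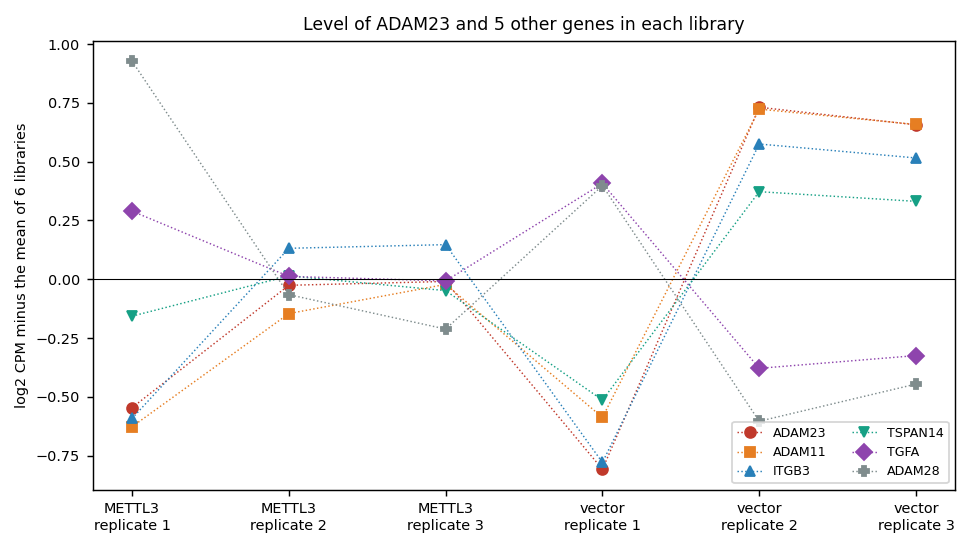
Log2 CPM minus the mean of the 6 libraries (vertical axis) for ADAM23, ADAM11, ITGB3, TSPAN14, TGFA and ADAM28 in each library; dotted lines only join the points of a gene. ADAM23, ADAM11, ITGB3 and TSPAN14 were lowest in both replicate 1 libraries and highest in vector replicates 2 and 3, and TGFA ran opposite to ADAM23.

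Genes that mature, escort and inhibit the sheddases were read from the same fits. Over all 6 libraries 0 of the 16 maturation and trafficking genes passed. Over replicates 2 and 3, 8 passed as lower with METTL3 and 0 as higher, where 8.59% of all genes tested passed as lower and 6.66% as higher. Of genes with a mean of at least 1 CPM, 21.2% passed there in either direction. Tetraspanins that escort ADAM10 to the cell surface are 6 of the 16 genes and made up 5 of the 8. TSPAN5 was at 17.1, 26.2 and 27.1 CPM with METTL3 and at 24.0, 43.2 and 43.1 CPM with the vector, with a log2 fold change of -0.65 over all libraries (adjusted p = 0.569) and -0.70 over replicates 2 and 3 (SE 0.0600, adjusted p = 2.78e-06). The other tetraspanins fell in those libraries by 0.93 (TSPAN10), 0.78 (TSPAN33), 0.37 (TSPAN14) and 0.20 (TSPAN17) on the log2 scale. TSPAN15, the member of that group with the highest mean RPKM, was at 0.09 there (adjusted p = 0.359). In mean CPM, TSPAN14 (195) was above TSPAN15 (72.3). TSPAN14 was higher with METTL3 by 0.36 in replicate 1, where TSPAN5, TSPAN10, TSPAN17 and TSPAN33 were lower. Over all libraries the log2 fold change of TSPAN14 was -0.18 (adjusted p = 0.821 from edgeR). FURIN, the convertase that removes the prodomain of ADAM proteins, was at 211, 156 and 147 CPM with METTL3 and at 105, 188 and 167 CPM with the vector. It fell by 0.23 on the log2 scale over replicates 2 and 3 and was higher with METTL3 in replicate 1. With the GC and length trends removed over replicates 2 and 3, 7 of the 16 passed as lower and 3 as higher.

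Of the 5 inhibitors, 0 passed over all libraries. Over replicates 2 and 3, 2 passed as lower with METTL3, beside 8.59% of all genes tested. Among genes with a mean of at least 1 CPM, 21.2% passed there in either direction. TIMP1, a tissue inhibitor of metalloproteases, was at 74.9, 99.4 and 101 CPM with METTL3 and at 113, 115 and 122 CPM with the vector, lower in all 3 METTL3 libraries (log2 fold change -0.35 over all libraries, adjusted p = 0.568, and -0.25 over replicates 2 and 3, adjusted p = 0.00659). Groups without overlap in CPM made up 17.4% of all genes tested. RECK, a membrane-anchored inhibitor, had a log2 fold change of -0.39 over all libraries (adjusted p = 0.648 from edgeR). It was higher with METTL3 by 0.14 in replicate 1 and lower by 0.61 over replicates 2 and 3, on the log2 scale. TIMP2 had a log2 fold change of 0.10 there (adjusted p = 0.253), and with the GC and length trends removed it passed as higher (0.14, adjusted p = 0.0198), which made 3 of the 5.

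Of 7 genes for partners of ADAM22 and ADAM23, 6 were tested. LGI2, a secreted ligand of these receptors, had 12, 20 and 24 counts with METTL3 and 22, 74 and 75 counts with the vector, and its log2 fold change was -1.64 over all libraries (adjusted p = 0.469) and -1.75 over replicates 2 and 3 (SE 0.343, adjusted p = 0.00281). The integrin that ADAM23 binds split by subunit. ITGB3 was at 25.0, 41.3 and 41.8 CPM with METTL3 and at 22.0, 56.2 and 53.9 CPM with the vector, with a log2 fold change of -0.29 over all libraries (adjusted p = 0.815) and -0.41 over replicates 2 and 3 (adjusted p = 0.000172). ITGAV was at 328, 310 and 290 CPM with METTL3 and at 237, 251 and 263 CPM with the vector, higher in all 3 METTL3 libraries (log2 fold change 0.31 over all libraries, adjusted p = 0.562, and 0.23 over replicates 2 and 3, adjusted p = 0.0127). For 17.4% of all genes tested the groups did not overlap in CPM. DLG4, a scaffold protein of synapses, had a log2 fold change of -0.14 over all libraries (adjusted p = 0.912 from edgeR). It was higher with METTL3 by 0.40 in replicate 1 and lower by 0.29 over replicates 2 and 3, on the log2 scale. Over replicates 2 and 3, 3 passed as lower and 1 as higher, beside 8.59 and 6.66% of all genes tested. Over all 6 libraries none of the 6 passed edgeR's test, with 2 at an unadjusted p under 0.05.

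Of 31 genes for substrates of the active members, 30 were tested and 0 passed over all libraries. Over replicates 2 and 3, 8 passed as higher and 7 as lower with METTL3, beside 6.66 and 8.59% of all genes tested. Of genes with a mean of at least 1 CPM, 21.2% passed there in either direction. E-cadherin (CDH1), cleaved by ADAM10, was at 439, 358 and 346 CPM with METTL3 and at 201, 184 and 189 CPM with the vector, with a log2 fold change of 0.99 over all libraries (adjusted p = 0.17) and 0.91 over replicates 2 and 3 (adjusted p = 7.46e-08). The EGF receptor ligands AREG and TGFA, cleaved by ADAM17, were higher by 0.79 and 0.35 there (0.30 and 0.16 over all libraries, adjusted p = 0.761 and 0.84), while in replicate 1 both were lower with METTL3. AREG was at 108, 109 and 126 CPM with METTL3 and at 143, 62.2 and 73.9 CPM with the vector. N-cadherin (CDH2) had 24, 43 and 11 counts with METTL3 and 27, 5 and 4 with the vector, so its log2 fold change of 2.49 over replicates 2 and 3 (SE 0.72, adjusted p = 0.0305, and 0.92 over all libraries, adjusted p = 0.742) rested on few reads. The chemokine CX3CL1 had a log2 fold change of -0.20 over all libraries (adjusted p = 0.808 from edgeR). It was higher with METTL3 by 0.49 in replicate 1 and lower by 0.55 over replicates 2 and 3, on the log2 scale. The substrates with the highest level, SDC4 and APP, had log2 fold changes of -0.02 (adjusted p = 0.861) and -0.11 (adjusted p = 0.16) there.

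METTL3 places m6A within a short motif written DRACH, in which the first base is A, G or T, the second A or G, the next 2 are A and C, and the last is A, C or T. The ADAM23 transcript of 6334 bases held 118 such matches on its own strand, or 18.6 per kb, beside a median of 19.1 per kb over 21986 transcripts of tested genes, of which 99.9% held at least 1. It held 5 copies of GGACT, a subset of DRACH, or 0.789 per kb beside a median of 0.914, and 82.1% of the transcripts held this motif. The 10 members ranged from 14.7 per kb in ADAM8 to 23.2 per kb in ADAM17. The stretch between the primers that the study used to assay m6A on ADAM23 lies in coding exons 5 and 6 (transcript bases 938 to 1043, chr2:206542081-206543304 with the intron between them). It is shown because it is the part of the transcript assayed, with DRACH matches in capitals.
ADAM23 amplicon: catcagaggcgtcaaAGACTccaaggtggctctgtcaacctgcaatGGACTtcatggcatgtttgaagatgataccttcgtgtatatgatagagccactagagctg

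It held 2 matches in 106 bases. A match is a description of the letters and not a methylated site, and methylation was not measured in these libraries. In its separate assay by m6A immunoprecipitation and PCR, the study reports more m6A on ADAM23 with METTL3 overexpressed than in control cells.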

How the data were processed

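The authors aligned reads to hg38 with HISAT2 and counted them per gene with featureCounts of Subread, and deposited the raw counts, which carry no normalization. fastp is also named in the submitters' processing notes. Versions, the annotation release and the handling of strand and multi-mapping reads are not given in the sources used here. By the labels the kit was stranded and reads were paired, whereas the study's methods name another kit and single-end reads. Between 67.6 and 70.5% of counts from 1 to 20 were even, so counts divided by 2 were also tested. Identifiers were matched without version to GENCODE release 44, which named 60463 of 60649 rows.

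The members and gene lists were chosen with earlier results of these data known. In R 4.3.3 with edgeR 4.0.16, genes passing filterByExpr (22038) were scaled by TMM and tested with glmQLFit (robust) and glmQLFTest, group as the only term, with Benjamini-Hochberg adjustment over all genes tested and a threshold of 0.05. The same fit was run on replicates 2 and 3 of each group (22046 genes). CPM used TMM factors, and RPKM the union of exons. Within-replicate log2 differences added 0.05 CPM. Likeness to ADAM23 used log2 CPM with a prior count of 2. Alternatives were DESeq2 1.42.0, other factors and filters, GC and length trends removed by splines with 5 degrees of freedom, and each library left out. The code was tested on simulated counts. Proteins were aligned with Biopython 1.88, and no protein sequence is printed.

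Deviations from the group mean correlated between libraries of the same number at 0.33, 0.12 and 0.17. Different numbers reached 0.21 and 0.13 between replicates 2 and 3, so the values matched replicate 1 only. Neither the values nor the labels show which libraries of replicates 2 and 3 belong together. Same-numbered differences and the replicate block used the numbers as pairs, which for replicates 2 and 3 is an arbitrary choice.

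Genes named are all members, METTL3, other ADAM genes with a mean of at least 0.1 CPM, and per partner list the 4 with the largest log2 fold change that passed in replicates 2 and 3 and the 2 with the highest mean RPKM, plus the 5 genes most like ADAM23, of which 1 is not reported here, and the 5 most opposite to it. Markers, TSPAN17 and the values of TGFA as a substrate were named after their values were seen.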

Additional observations from a re-analysis of the deposited data

How the results depend on the processing

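No member passed in the 15 alternatives that kept a replicate 1 library, and the sign of ADAM23, ADAM22, ADAM8, ADAM9, ADAM12, ADAM15 and ADAM28 held in all 20 alternatives run. The number of all genes called was 0 and became 283 with DESeq2, 560 with no filter on low counts, 1 with GC and length trends removed and 6 with the replicate block as well. The replicate block alone called 0 genes and set ADAM23 at -0.40 (adjusted p = 0.523), and it changed no member's call over all 6 libraries. Leaving out single libraries gave 0 to 367 genes called, 0 members, -0.87 to -0.26 for ADAM23, -0.40 to -0.02 for ADAM8, 0.04 to 0.83 for ADAM28, -0.34 to -0.12 for ADAM22, -1.50 to -0.68 for ADAM12, 0.05 to 0.16 for ADAM17 and -0.52 to -0.04 for the log2 class ratio. The 367 came from leaving out vector replicate 1.

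Over replicates 2 and 3 of each group, the genes called were 3362, with GC and length trends removed 4704, with upper-quartile factors 3303, with DESeq2 3218 and with the replicate block 5450. The members called were 6, 7, 6, 7 and 7, and the log2 fold change of ADAM23 was -0.71, -0.68, -0.72, -0.71 and -0.71, in that order, with adjusted p from 6.74e-19 to 3.83e-05. The smallest came from the block fit, which has the fewest residual degrees of freedom and rests on a pairing of replicates 2 and 3 that the values do not show. ADAM15 was added by the GC, DESeq2 and block settings. The cause of the changes between settings was not tested beyond their use of fewer libraries or genes.

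Signs turned only for members near 0. ADAM10 (-0.02) became 0.00095 with no filter, 0.0038 with at least 10 counts in every library and 0.0032 with counts divided by 2, and -0.027 to 0.023 with single libraries left out. ADAM17 (0.09) became -0.0078 over replicates 2 and 3, -0.016 there with upper-quartile factors and -0.0086 with the block. ADAM19 (0.04) became -0.054 with GC and length trends removed, with or without the replicate block, and -0.35, -0.32, -0.36, -0.35 and -0.29 in the 5 fits on replicates 2 and 3 in the order above, and -0.33 to 0.38 with single libraries left out. ADAM19 had 10 to 27 counts per library and ADAM12 27 to 178, the lowest of the members.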
